A study of Mus musculus with 32 samples.

Results

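The miRNAs miR-208a, miR-208b and miR-499 were followed while mouse embryonic stem (ES) cells differentiated and matured to cardiomyocytes. They were chosen by name, as the miRNAs encoded in introns of myosin heavy chain genes, and all 3 were found among the 608 miRNAs that both array platforms carry. All cells came from ES-D3 cells, a pluripotent mouse line, in the form of the clone aPIG 44, which carries a puromycin resistance gene and an EGFP reporter under the cardiac alpha-MHC promoter, so the controls carry the construct too and all samples go back to a single clone. Undifferentiated cells of day 0 were taken from gelatin after growth on mouse embryonic fibroblasts. Cor.At cardiomyocytes were obtained from embryoid bodies by puromycin selection, collected at days 12, 19 and 26 of differentiation, and compared with day 0. The promoter that drives the selection belongs to the gene that hosts miR-208a, so cells were kept for activity of that promoter. There were 2 cultures, a and b, per day, described by the study as biological duplicates. Each RNA was hybridized to an Affymetrix miRNA array and to a Febit Geniom biochip, and the values of each platform were normalized by 2 methods, which gave 4 data sets of 8 arrays. These are called Affymetrix RMA, Affymetrix VSN, Febit non-VSN and Febit VSN (VSN is variance stabilization normalization). All values are on the log2 scale unless raw intensity is written, and the number of arrays, 2 per day and data set, limits their precision.

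A miRNA is a short RNA that pairs through its seed, the bases near its 5′ end, with messenger RNAs and lowers their output. The 3 miRNAs are transcribed together with their myosin genes: miR-208a with Myh6, which encodes alpha myosin heavy chain of the adult mouse heart, miR-208b with Myh7, which encodes beta myosin heavy chain of the fetal heart and of slow skeletal muscle, and miR-499 with Myh7b, a related slow myosin gene. In the heart they are known for a role in setting which myosin isoforms are made, and miR-208a is required for the response of the adult mouse heart to stress. The mature sequences (RefSeq, GRCm38.p6) are shown because the overlap between them bears on what an array can tell apart. Capitals mark the seed, bases 2 to 8 counted from the 5′ end.
miR-208a: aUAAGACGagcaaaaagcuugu
miR-208b: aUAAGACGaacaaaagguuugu
miR-499: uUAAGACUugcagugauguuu

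miR-208a lies at chr14:54949072-54949093 on the minus strand within the span of Myh6, and miR-208b lies at chr14:54975710-54975731 on the same strand within the span of Myh7, with 26557 bases between the 2 hairpins. miR-499, the 5p arm of its hairpin, lies at chr2:155622893-155622913 on the plus strand within the span of Myh7b. The annotation used gives gene spans without exons. miR-208a and miR-208b carry the same seed, UAAGACG, and among 1679 mature mouse miRNA names no other carries it. They are alike at 19 of 22 positions and differ by G10A, A16G and C18U (the miR-208a base, the position from the 5′ end, the miR-208b base). The seed of miR-499 is UAAGACU and belongs to that miRNA alone. Bases 2 to 7, UAAGAC, are shared by exactly these 3 names. How far the probes of the similar pair cross-react was not tested, as probe sequences were not analysed here.

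Cell identity was checked on 9 lists of marker miRNAs, given here as mean log2 value above the median of the array on the VSN arrays. The heart and skeletal muscle miRNAs (miR-1, miR-133a, miR-133b) stood at 6.91 to 8.31 on later Affymetrix arrays, against -0.68 to 0.21 at day 0, and at 2.77 to 5.24 on later Febit arrays, against -0.58 to -0.51 at day 0. The 11 ES cell miRNAs stood at 0.30 to 1.68 on later Affymetrix arrays, against 3.42 to 3.43 at day 0. Smooth muscle miR-143 and miR-145 were at 8.47 to 9.19 on later Affymetrix arrays, against 3.07 to 3.34 at day 0, and thus moved with the muscle miRNAs. The 3 fibroblast miRNAs spanned -0.09 to 2.30 on later Affymetrix arrays and 0.70 to 2.76 at day 0. On later Febit arrays the ES cell miRNAs were at -0.88 to -0.30, against 1.03 to 2.65 at day 0, miR-143 and miR-145 at 5.23 to 6.57, against -1.65 to -0.08, and the fibroblast miRNAs at -0.65 to 2.14, against 0.43 to 1.24. Liver miR-122 was at 0.83 to 1.85 on later Affymetrix arrays, against -1.84 to -0.84 at day 0, with no overlap, and at -1.39 to 0.20 on later Febit arrays, against -1.60 to -1.38 at day 0, where 1 day 12 array lay within the day 0 range. Skeletal miR-206 was at -0.81 to 2.39 on later Affymetrix arrays, against -1.29 to -0.42, and at -0.49 to 0.54 on later Febit arrays, against -3.13 to -1.43. At day 12 on Febit the endothelial miRNAs were at -0.02 to 0.24, against -1.43 to -0.98 at day 0, and those of blood at -0.20 to 0.06, against -1.09 to -0.55. By days 19 and 26 on Febit the endothelial miRNAs were at -2.04 to -0.78 and those of blood at -1.07 to -0.45. On later Affymetrix arrays the endothelial miRNAs were at -1.84 to 0.42, against -0.72 to 0.05 at day 0, and those of blood at -1.32 to -0.68, against -1.05 to -0.47. The nervous tissue miRNAs were at -1.24 to -0.56 on later Affymetrix arrays, against 0.74 to 0.81, and at -2.23 to 0.21 on later Febit arrays, against -0.16 to 0.39. The part of such cells in the results below was not tested, and in bulk RNA more expressing cells and more RNA per cell cannot be told apart. The titles of 2 Febit non-VSN arrays disagree with their values. The array titled day 12 a follows the raw day 19 b array (rank correlation 1, against 0.20 with the raw array of its own title), and the array titled day 19 b follows the raw day 12 a array in the same way. Febit non-VSN results are therefore given by title and with these 2 arrays exchanged. The Febit VSN arrays follow their own titles. The raw Febit array of day 26 b was dimmer than the rest, with a median of 228 against 928 to 992.

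Which of the 3 miRNAs changed during differentiation was asked by comparing each later day with day 0 within each data set, over 485 miRNAs. On Febit, miR-208a was higher at every later day, in both data sets. miR-208b joined it at days 19 and 26 in Febit VSN, at day 19 alone in Febit non-VSN with the arrays exchanged, and at no day there by title. On Affymetrix, miR-208a passed the test at no day, while miR-499 and miR-208b were higher at day 26. No member was significantly lower than day 0 in any data set. By adjusted p under 0.05 (limma, Benjamini-Hochberg), Febit VSN called 1 member at day 12, 2 at day 19 and 2 at day 26. Of all miRNAs tested there, 14.2% were called at day 12, 7.84% at day 19 and 12.8% at day 26. Febit non-VSN called 1 member at each day, against 6.6%, 7.22% and 7.84% of all tested at days 12, 19 and 26. With the arrays exchanged it called 1, 2 and 1 members. The exchange also raised the calls among all 485 tested to 54, 57 and 53, against 32, 35 and 38 by title. Affymetrix VSN called 1 member at day 12, none at day 19 and 2 at day 26, where 32.4%, 33.6% and 39.8% of all tested were called. Affymetrix RMA called members at day 26 only, 2 of them, where 33.4%, 36.3% and 40.2% of all tested were called at days 12, 19 and 26. Before adjustment, miR-499 also passed 0.05 in limma at day 19 in Affymetrix VSN and at day 12 in Affymetrix RMA, and no member passed at day 19 in Affymetrix RMA. The Affymetrix counts are thus near what those shares give for any 3 miRNAs. The median change of all tested miRNAs was 0.34, 0.22 and 0.41 in Affymetrix VSN at days 12, 19 and 26, and between -0.02 and 0.06 in the other data sets. With each array centred on its median it was -0.43, -0.09 and -0.33 in Affymetrix VSN, and -0.26, -0.10 and -0.21 in Affymetrix RMA.

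**Figure D1:**
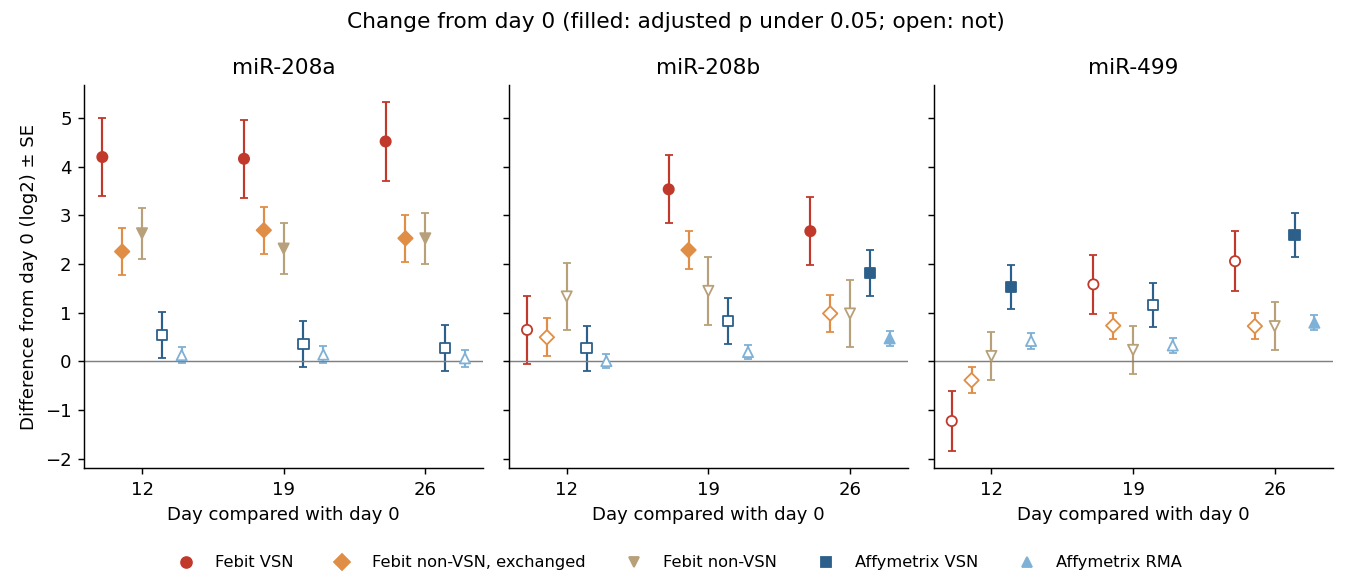
Change of each miRNA from day 0 (log2 difference, y axis) at days 12, 19 and 26 (x axis) in each data set, with bars of 1 standard error of the fit and filled symbols at an adjusted p under 0.05. Febit VSN puts miR-208a 4.20, 4.16 and 4.52 above day 0, whereas both Affymetrix data sets put it between 0.06 and 0.54, values that turn negative at days 12 and 26 when each array is centred on its median.

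miR-208a, from the intron of the alpha myosin gene, was the member with the earliest change on Febit. In Febit VSN its values were 7.01 and 4.95 at day 0 (cultures a and b), 10.61 and 9.74 at day 12, 9.78 and 10.50 at day 19 and 11.00 and 9.98 at day 26. All 6 later arrays lay above both day 0 arrays, and the day 0 cultures were farther apart than those of any later day. The difference from day 0 was 4.20 ± 0.80 at day 12 (SE, adjusted p = 0.0107), 4.16 ± 0.80 at day 19 (adjusted p = 0.0113) and 4.52 ± 0.80 at day 26 (adjusted p = 0.00584). The order of the days was 26, 12, 19 and 0, and the later days did not differ from each other beyond their spread, with differences of at most 0.36 and adjusted p of 0.827 to 0.992. Leaving out the day 12 a array ended the day 12 call (3.76, adjusted p = 0.0952), leaving out day 19 a or b ended the day 19 call (adjusted p = 0.0946 and 0.104), and leaving out day 26 a ended the day 26 call (4.01, adjusted p = 0.0636). With only the arrays of the 2 days in the fit, adjusted p was 0.0796 at day 12 and 0.0635 at day 19, and the centred raw signal gave 1.15 at day 19 (adjusted p = 0.0521).

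In Febit non-VSN by title, miR-208a was at 8.27 and 7.50 at day 0, 11.05 and 9.98 at day 12, 10.11 and 10.30 at day 19 and 11.05 and 9.78 at day 26. These values again did not overlap between later days and day 0. The differences were 2.63 ± 0.52 at day 12 (limma adjusted p = 0.00978), 2.32 ± 0.52 at day 19 (adjusted p = 0.0160) and 2.53 ± 0.52 at day 26 (adjusted p = 0.00916). With the 2 arrays exchanged they were 2.26, 2.69 and 2.53, all called. Leaving out day 0 b lost all 3 calls of the deposited titles, with differences of 2.25, 1.93 and 2.14 and adjusted p of 0.0698, 0.118 and 0.0844. The same happened to single days without day 12 a (2.1, adjusted p = 0.0909), day 19 a (2.41, 0.0811), day 19 b (2.22, 0.0968) or day 26 a (1.89, 0.129). An intensity trend in the prior variance also ended the day 19 call (adjusted p = 0.0544), as the raw signal did.

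On Affymetrix, miR-208a did not separate the days. The Affymetrix VSN values were 1.37 and 2.17 at day 0, 2.43 and 2.19 at day 12, 2.00 and 2.25 at day 19 and 2.43 and 1.67 at day 26. Of the 6 later arrays 4 lay above both day 0 arrays. On all 8 arrays miR-208a lay below the array median, at -0.91 to -0.15 from it. Its percentiles among the miRNAs of an array were 20.6 to 47.0. The difference from day 0 was 0.54 ± 0.48 at day 12, 0.35 ± 0.48 at day 19 and 0.28 ± 0.48 at day 26, with limma adjusted p of 0.469, 0.611 and 0.674, and centring each array on its median turned days 12 and 26 to -0.23 and -0.46. The 95% interval of the day 26 difference ran from -0.77 to 1.33 and so leaves room for a moderate change. In Affymetrix RMA all 8 values lay between 3.99 and 4.32, at percentiles 24.7 to 56.6. The differences there were 0.13, 0.14 and 0.06, of which those of days 12 and 26 became -0.14 and -0.15 with centring. Whether Affymetrix could show a change of miR-208a at such low levels was not tested.

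**Figure D2:**
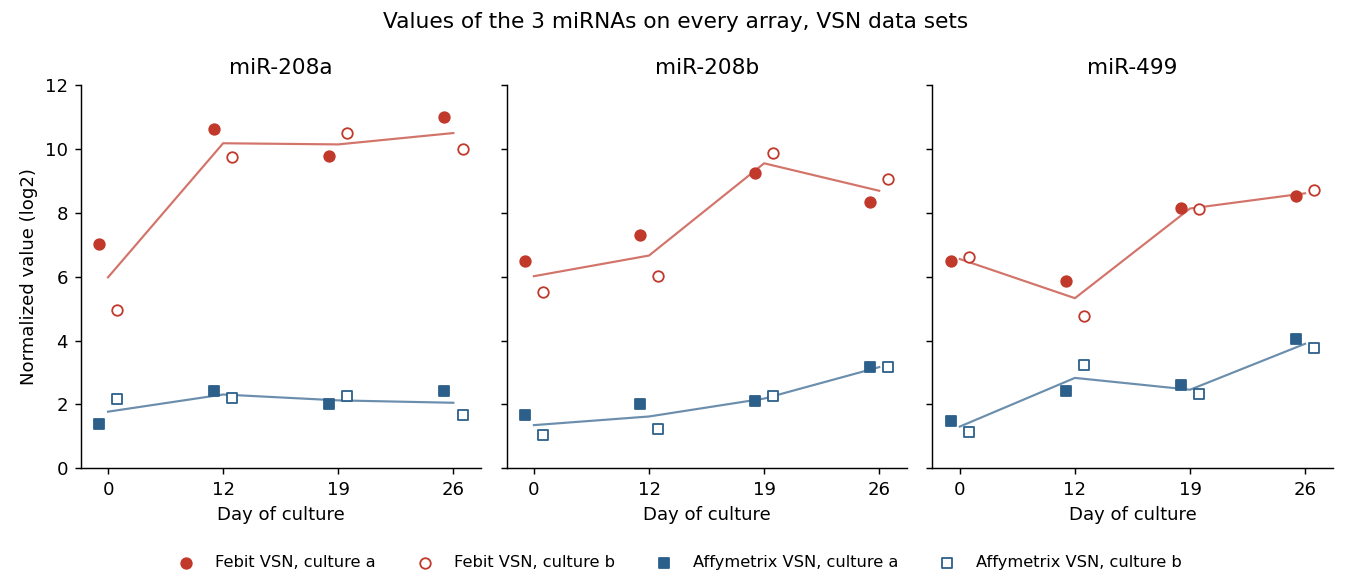
Normalized log2 value (y axis) of each miRNA on every VSN array at days 0, 12, 19 and 26 (x axis), with lines through the mean of the 2 cultures of a day. On Febit, miR-208a is high from day 12 on, whereas both arrays of a day lie above day 0 from day 19 on for miR-208b and miR-499. No change of miR-499 from day 0 was called in Febit VSN. The 2 platforms were normalized separately, so their heights are not comparable.

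miR-208b, from the intron of the beta myosin gene, was higher at the 2 later days in Febit VSN and at day 26 in both Affymetrix data sets. In Febit VSN it had 6.50 and 5.53 at day 0, 7.30 and 6.02 at day 12, 9.24 and 9.86 at day 19 and 8.33 and 9.05 at day 26. The day 12 arrays overlapped those of day 0, and all 4 arrays of days 19 and 26 lay above both. The difference from day 0 was 0.65 ± 0.70 at day 12 (limma adjusted p = 0.616), 3.53 ± 0.70 at day 19 (adjusted p = 0.0122) and 2.67 ± 0.70 at day 26 (adjusted p = 0.0325). Day 19 exceeded day 12 by 2.89 ± 0.70 (adjusted p = 0.0260), and day 26 exceeded day 12 by 2.03 ± 0.70, which missed the threshold (adjusted p = 0.0973). Day 26 and day 19 did not differ beyond their spread (-0.86 ± 0.70, adjusted p = 0.977). The order of the days was thus 19, 26, 12 and 0. The day 19 call was lost without day 19 a or b (3.84 and 3.22, adjusted p = 0.102 and 0.124), and the day 26 call without day 0 b (2.19, adjusted p = 0.0857), either day 19 array (0.0723) or either day 26 array (0.0968 without a, 0.20 without b). The difference between days 19 and 12 lost its call without any of its own 4 arrays (2.25 to 3.53, adjusted p = 0.0701 to 0.188). With only the 2 days in the fit the calls at days 19 and 26 were lost (adjusted p = 0.0563 and 0.104), as they were in the centred raw signal (0.83 and 0.85, adjusted p = 0.386 and 0.0938), which also lost the difference between days 19 and 12 (0.74, adjusted p = 0.398), as centring of the VSN arrays did (2.46, adjusted p = 0.0505). Quantile normalization lost the day 26 call (2.09, adjusted p = 0.118).

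The Febit non-VSN values of miR-208b show what the 2 titles do. By title it had 8.04 and 7.79 at day 0, 10.58 and 7.92 at day 12, 9.83 and 8.90 at day 19 and 8.77 and 9.03 at day 26. The cultures of day 12 were 2.65 apart, and no day passed the test, with differences of 1.33, 1.45 and 0.98 and limma adjusted p of 0.425, 0.407 and 0.654. Without the array titled day 12 b the day 12 difference became 2.66 and passed (adjusted p = 0.0129). With the arrays exchanged, day 12 differed by 0.49 ± 0.39 (adjusted p = 0.445) and day 19 by 2.29 ± 0.39 (adjusted p = 0.00405), as on the Febit VSN arrays in direction and call. The 2 data sets then come from the same raw arrays, so this likeness is not a separate measurement. Day 26 was unmoved by the exchange in size, at 0.98 ± 0.39, and was not called (adjusted p = 0.183).

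On Affymetrix VSN, miR-208b had 1.67 and 1.03 at day 0, 2.01 and 1.23 at day 12, 2.11 and 2.25 at day 19 and 3.16 and 3.18 at day 26. The means of the days rose in the order 0, 12, 19 and 26, and the day 26 arrays were the highest of the 8. The highest percentile of miR-208b on these arrays was 55.9. The difference from day 0 was 0.27 ± 0.46 at day 12 (-0.50 with each array centred on its median), 0.83 ± 0.46 at day 19 and 1.82 ± 0.46 at day 26, of which the day 26 difference was called (limma adjusted p = 0.00823). Day 26 exceeded day 12 by 1.55 ± 0.46 and day 19 by 0.98 ± 0.46, neither past the threshold (adjusted p = 0.0855 and 0.346). Without day 0 b the day 26 difference was 1.49 (adjusted p = 0.0589), and with this centring it was 1.08 (adjusted p = 0.0884). In Affymetrix RMA the day 26 difference was 0.47 ± 0.15 (adjusted p = 0.0464), with arrays at 4.52 and 4.44 at day 26, against 4.08 and 3.94 at day 0. That call was lost without any single array (0.40 to 0.54, adjusted p = 0.0600 to 0.180), with the letters as a replicate block (adjusted p = 0.0509), with centring (0.26, adjusted p = 0.220), with quantile normalization (0.39, adjusted p = 0.0832) and with only the 2 days in the fit (adjusted p = 0.0928).

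miR-499, from the slow myosin gene Myh7b, was higher at day 26 in both Affymetrix data sets. Its Affymetrix VSN values were 1.47 and 1.14 at day 0, 2.43 and 3.23 at day 12, 2.60 and 2.32 at day 19 and 4.04 and 3.76 at day 26. All 6 later arrays lay above both day 0 arrays. The highest percentile of miR-499 on these arrays was 63.8. The difference was 1.52 ± 0.46 at day 12 (limma adjusted p = 0.0236), 1.15 ± 0.46 at day 19 (adjusted p = 0.0729) and 2.59 ± 0.46 at day 26 (adjusted p = 0.000672). Day 26 exceeded day 19 by 1.44 ± 0.46 and day 12 by 1.07 ± 0.46, and neither passed the test (adjusted p = 0.201 and 0.225). The day 12 call was lost without day 0 b (1.36, adjusted p = 0.105) or day 12 b (1.13, adjusted p = 0.178), and with centred (0.76, adjusted p = 0.215) or quantile normalized arrays (1.19, adjusted p = 0.0563), whereas the day 26 call was kept without each of the 8 arrays in turn (2.43 to 2.75) and with centring. In Affymetrix RMA the day 26 difference was 0.79 ± 0.16 (adjusted p = 0.00695), with values of 4.84 and 4.66 at day 26, against 3.98 and 3.93 at day 0, and it too was kept without each array. The Affymetrix RMA differences at days 12 and 19, 0.42 and 0.33, were not called.

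On Febit VSN, miR-499 had 6.50 and 6.60 at day 0, 5.87 and 4.78 at day 12, 8.15 and 8.11 at day 19 and 8.51 and 8.70 at day 26. Both day 12 arrays lay below both day 0 arrays, and the 4 arrays of days 19 and 26 lay above them. None of the differences from day 0 passed the test. They were -1.23 ± 0.61 at day 12 (limma adjusted p = 0.227), 1.58 ± 0.61 at day 19 (adjusted p = 0.156) and 2.06 ± 0.61 at day 26 (adjusted p = 0.0549), and the last was called without either day 12 array (adjusted p = 0.0490). Against day 12, the lowest day, miR-499 was 2.81 ± 0.61 higher at day 19 (adjusted p = 0.0220) and 3.28 ± 0.61 higher at day 26 (adjusted p = 0.0178). These 2 calls were lost without any of the arrays of the days compared (2.26 to 3.35, adjusted p = 0.0701 to 0.173 at day 19, and 2.74 to 3.83, adjusted p = 0.0621 to 0.100 at day 26) and in the centred raw signal (0.34 and 0.81, adjusted p = 0.442 and 0.0786), and the day 26 call with quantile normalization (2.48, adjusted p = 0.0557). Day 26 exceeded day 19 by 0.48 ± 0.61, within the spread. In Febit non-VSN by title the differences from day 0 were 0.11, 0.24 and 0.72, none called. With the arrays exchanged they were -0.39 ± 0.27, 0.73 ± 0.27 and 0.72 ± 0.27, none called.

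Between later days, Febit VSN called miR-208b and miR-499 for day 19 against day 12, and miR-499 for day 26 against day 12, where 13.8% and 10.1% of all tested miRNAs were called. No member was called between days 26 and 19 in Febit VSN, where 0% of all tested were, and none between later days in the other 3 data sets. Of all tested, Affymetrix VSN called 0.412% for day 19 against day 12, 4.12% for day 26 against day 12 and 0% for day 26 against day 19, and Affymetrix RMA called 1.03%, 8.45% and 0.825% in that order. Febit non-VSN by title called 0% in all 3 of these comparisons. Before adjustment, miR-208b and miR-499 passed 0.05 in limma for day 26 against day 12 in Affymetrix VSN, and miR-499 did for day 26 against day 19. In Affymetrix RMA miR-208b passed for day 26 against day 12 and miR-499 for day 26 against day 19, and in Febit non-VSN by title no member did. With the arrays exchanged, Febit non-VSN likewise called no member between later days. Of all 485 tested it then called 8 for day 19 against day 12, 6 for day 26 against day 12 and 0 for day 26 against day 19. Before adjustment, miR-208b (1.79 ± 0.39, adjusted p = 0.0533 by limma) and miR-499 (1.12 ± 0.27, adjusted p = 0.0705) passed 0.05 there for day 19 against day 12, miR-499 for day 26 against day 12 (1.11 ± 0.27, adjusted p = 0.0743) and miR-208b for day 26 against day 19, where it was lower (-1.30 ± 0.39, adjusted p = 0.705).

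The raw Febit signal shows how near the members were to the background. Each miRNA has 8 features on the biochip, and the median of all miRNAs on an array serves here as a gauge of its background. The feature median of miR-208a was 972 and 840 at day 0, 2385 and 1884.5 at day 12, 1844.5 and 2205 at day 19 and 3849 and 936 at day 26. The last of these, on the dim array, was 4.11 times the median of its array, and the day 26 a value was 3.88 times, against 1.01 and 0.90 times at day 0. At days 12 and 19 the ratio was 1.92 to 2.46. All 8 features of miR-208a were brighter than on both day 0 arrays on each of the 5 later arrays other than day 26 b. On the 6 later arrays the features of miR-208a disagreed with each other more than those of most miRNAs. Their SD of log2 intensity was 0.42 to 0.71 there, above that of 94.8% to 99.9% of all miRNAs. At day 0 it was above that of 21.1% (culture a) and 0.99% (culture b). On later arrays the SD of miR-208b was above that of 36.2% to 90.0% of all miRNAs, and that of miR-499 above 16.6% to 98.9%. The same feature of miR-208a, the third of the 8 as listed, was the brightest on 5 of the 8 arrays. On day 12 a the miR-208a features ran from 1848.5 to 6057.

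miR-208b had raw medians of 944 and 868 at day 0, 1040 and 936 at day 12, 1528 and 1712 at day 19 and 1320 and 572 at day 26. In multiples of the median of the array this was 0.98 and 0.93 at day 0, 1.07 and 0.95 at day 12, 1.62 and 1.84 at day 19 and 1.33 and 2.51 at day 26. On the day 12 arrays miR-208b was thus at the array median while miR-208a, which is alike at 19 of 22 bases, was 2.46 and 1.92 times the median. miR-499 had raw medians of 944 and 936 at day 0, 936 and 868 at day 12, 1160 and 1092 at day 19 and 1384 and 488 at day 26, or 0.88 to 0.97 times the array median at day 12, 1.18 and 1.23 times at day 19 and 1.40 and 2.14 times at day 26. No feature of miR-499 reached 2 times the median of its array before day 26 b, where 4 of 8 did, and its day 26 b features were spread from 272 to 1616. Before day 19 the medians of miR-208b and miR-499 lay at 0.88 to 1.07 times the array median on all 4 arrays, so their normalized day 12 values rest on signals near background.

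**Figure D3:**
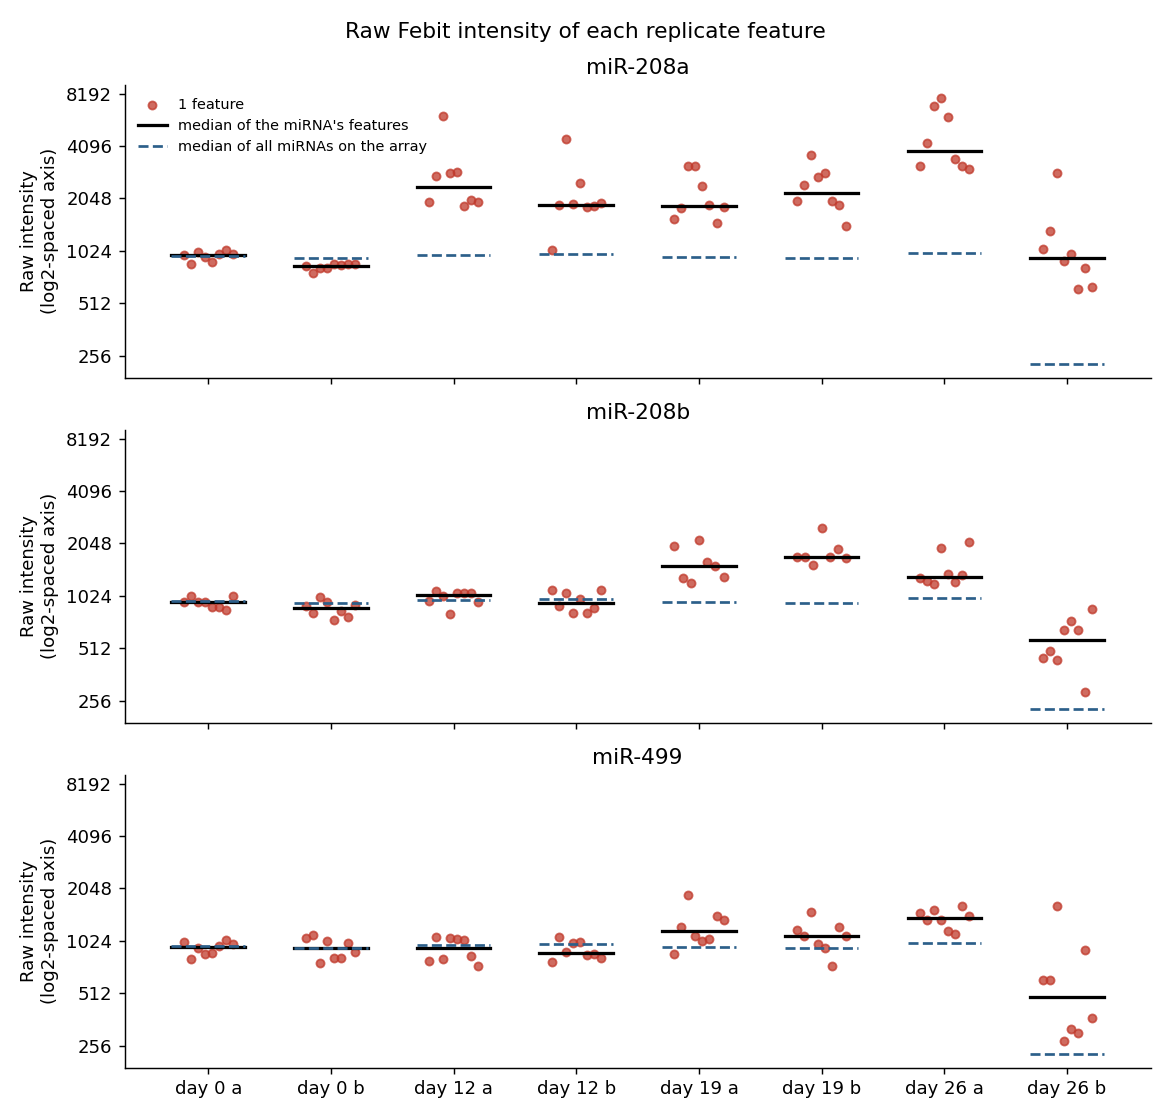
Raw Febit intensity (y axis, log2-spaced) of each of the 8 features of a miRNA on the 8 arrays (x axis), with the median of the features as a solid line and the median of all miRNAs on the array as a dashed line. miR-208a leaves the dashed line at day 12, miR-208b at day 19, and the median of miR-499 stays within 1.40 times of it until the dim day 26 b array.

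Whether the platforms differed in these changes was tested on the difference between Febit VSN and Affymetrix VSN in each RNA sample. For miR-208a the change from day 0 was larger on Febit by 3.66 ± 0.97 at day 12 (limma adjusted p = 0.0155), 3.81 ± 0.97 at day 19 (adjusted p = 0.0245) and 4.24 ± 0.97 at day 26 (adjusted p = 0.0131). For miR-499 the change at day 12 was smaller on Febit by 2.75 ± 0.89, a difference of -2.75 (adjusted p = 0.0399). With Affymetrix RMA and Febit non-VSN values that difference was -0.31 by title (adjusted p = 0.794) and -0.81 with the arrays exchanged (adjusted p = 0.142), whereas those of miR-208a were called at each day by title and exchanged, with Febit again the larger. The other 5 differences were not called: miR-208b was at 0.38, 2.70 and 0.86 at days 12, 19 and 26 (adjusted p = 0.834, 0.0570 and 0.639) and miR-499 at 0.43 and -0.53 at days 19 and 26. The miR-208b difference at day 19 was called with RMA and exchanged non-VSN values (2.09 ± 0.41, adjusted p = 0.00518). Of all tested miRNAs, 19.2%, 7.84% and 9.28% were called at days 12, 19 and 26. The miR-208a calls were lost without day 0 b at all 3 days (2.23, 2.38 and 2.81, adjusted p = 0.115, 0.130 and 0.0735) and without day 12 a (3.34, 0.0897), day 19 a (4.04, 0.105), day 19 b (3.57, 0.198), day 26 a (4.11, 0.117) or day 26 b (4.37, 0.0702) at the day of that sample. The miR-499 difference was kept only without day 12 a, and was lost without each of the other 7 samples (-2.96 to -1.81, adjusted p = 0.0583 to 0.282).

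The members were also compared with each other, as the change from day 0 of the log2 difference between 2 of them on the same array, over 3 pairs on 2 platforms. In Febit VSN, miR-208a minus miR-499 was 2.91 on average on the 6 later arrays, with a range of 1.28 to 4.95, against -0.57 at day 0, with arrays at -1.65 and 0.51. It changed by 3.49, in the same direction on 6 of 6 later arrays (two-sided exact permutation test, p = 0.0714, adjusted p = 0.214). miR-208a minus miR-208b changed by 2.01 (6 of 6 later arrays above day 0, exact p = 0.143, adjusted p = 0.214), and miR-208b minus miR-499 by 1.48 (5 of 6, exact p = 0.0714, adjusted p = 0.214). On Affymetrix VSN the 3 changes had the opposite sign, at -1.37, -0.58 and -0.78 in that order, with exact permutation adjusted p of 0.214, 0.5 and 0.257. No pair passed the threshold, and with 6 arrays against 2 the test cannot give a p below 0.0357.

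The other striated muscle miRNAs, a list of 5, were higher at day 26 in both Affymetrix data sets, and 4 of them in Febit VSN. Febit non-VSN called 2 of the 5 at day 26, and 3 with the arrays exchanged. miR-1 and miR-133a, the main miRNAs of heart and skeletal muscle, and miR-133b, miR-206, known from skeletal muscle, and miR-486, known from muscle and red blood cells, were all called higher at day 26 on Affymetrix VSN (5 of 5), with 4 of 5 at day 12 and 5 of 5 at day 19. Their median change at day 26 was 8.01, against 1.82 for the 3 myosin gene miRNAs and 0.41 for all tested. On Febit VSN 2, 3 and 4 of the 5 were called at days 12, 19 and 26, all higher, and the median at day 26 was 3.02, against 2.67 for the myosin gene miRNAs and 0.02 for all tested. At day 26 miR-1 was higher by 7.20 ± 0.62 on Febit VSN (limma adjusted p = 0.000211) and by 9.73 ± 0.60 on Affymetrix VSN (adjusted p = 3.26e-07). miR-486 was at 0.02 ± 0.74 on Febit VSN (adjusted p = 0.995), whereas on Affymetrix VSN it was higher by 5.02 ± 0.48 (adjusted p = 6.05e-06). On Affymetrix VSN miR-206 was higher by 2.84 ± 0.56 at day 26 (limma adjusted p = 0.00146), whereas the paper states that it saw no increase of miR-206. The paper also describes the sequence of miR-206 as much like that of miR-1. Cross-reaction between probes of similar miRNAs in this list was not tested. The Febit VSN call of miR-206 at day 26 (2.45 ± 0.70, adjusted p = 0.0460) was kept in 1 of 8 other settings and without 1 of the 8 arrays. That of miR-133b (3.02 ± 0.62, adjusted p = 0.00929) was lost with only the 2 days in the fit (adjusted p = 0.0574), in the raw signal (1.39, adjusted p = 0.0509) and without day 26 a or b (adjusted p = 0.0571 and 0.101). miR-208a was thus the only 1 of these 8 miRNAs that Febit VSN called at all 3 days and Affymetrix VSN at none.

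**Figure D4:**
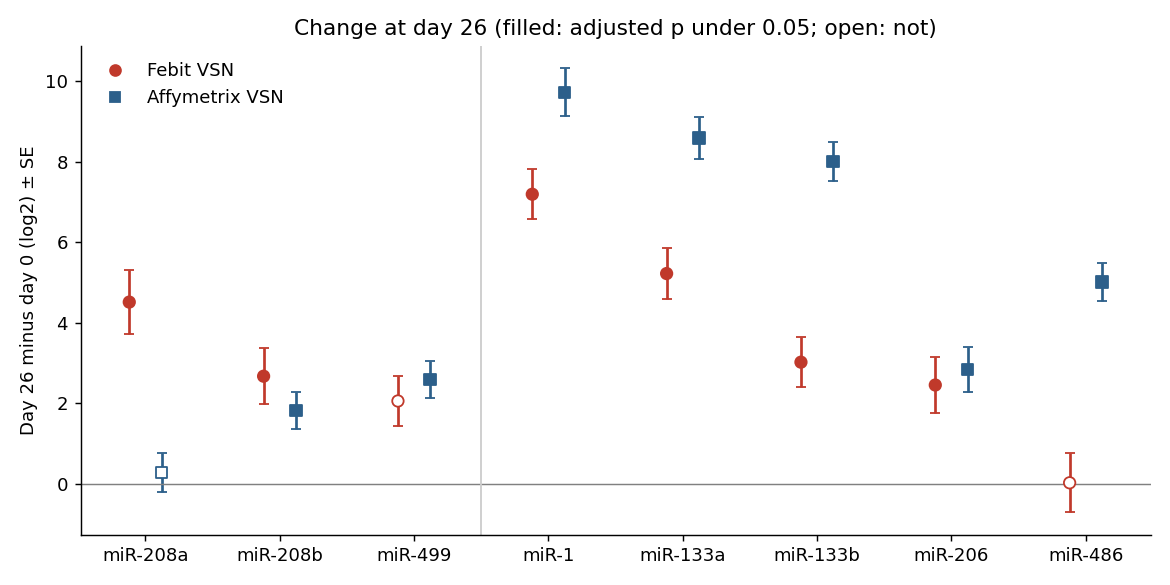
Day 26 minus day 0 (log2, y axis, bars of 1 standard error of the fit) for the 3 myosin gene miRNAs, left of the line, and 5 other muscle miRNAs (x axis) in the VSN data sets, filled at an adjusted p under 0.05. miR-208a is at 4.52 on Febit and 0.28 on Affymetrix, and miR-486 at 0.02 on Febit and 5.02 on Affymetrix.

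As a description, the time course of each member was set against all other tested miRNAs by Pearson correlation over the 8 arrays, averaged over the 2 VSN data sets. The arrays of a data set share their normalization, and most of the spread is that between day 0 and the later days. miR-208a was most like miR-670, miR-130a and miR-744 (mean r = 0.77, 0.76 and 0.76). miR-208b was most like miR-99a, miR-21 and miR-350 (0.91, 0.88 and 0.84), and miR-499 was most like miR-29a, miR-24-2* and miR-133a*, the star strand of miR-133a (0.94, 0.93 and 0.91). Among the members, miR-208b and miR-499 followed each other in both data sets (r = 0.81 on Febit and 0.75 on Affymetrix). This was not particular to the pair: by mean r, miR-499 ranked 9 among the miRNAs like miR-208b, and miR-208b ranked 35 among those like miR-499. miR-208a and miR-208b had r = 0.68 on Febit and 0.01 on Affymetrix, and miR-208a and miR-499 had 0.29 and 0.25.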

How the data were processed

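The authors hybridized total RNA of 8 cultures to both platforms. For Affymetrix they deposited log2 values of 609 miRNAs after RMA or VSN in Bioconductor. For Febit they deposited log2 values of 710 miRNAs, background corrected and either quantile normalized (non-VSN) or treated by VSN, and raw intensity values of 8 features per miRNA, deposited without background correction. Groups follow the titles. The culture texts of most day 19 and 26 records give the seeding time of day 12, which the values do not settle.

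Here 485 miRNAs were tested, those of the 608 common ones that the study lists as present on 1 or both platforms. All 3 members are listed as present on both. Within each data set, limma 3.58.1 under R 4.3.3 was given the 8 arrays with day as the factor, which leaves 4 residual degrees of freedom, and the p-values of each comparison were adjusted by Benjamini-Hochberg over all miRNAs tested. Errors are SE of the fit. The fit was tested on simulated data with a single spread for all miRNAs and changes larger than most of those of the members. That test does not show how well smaller changes are found. Raw intensity was summarised as the median over features, 7 for miR-208b on both day 19 arrays. miRNA names were matched to RefSeq (3 of 3 members). The named miRNAs are the members, 5 muscle miRNAs, the 3 most similar per member and the marker lists, chosen with earlier results of these data known. Labels do not say that letters a and b pair cultures. Deviations of a and b correlated between days at -0.14 to 0.62. The highest was that of days 12 and 19 in Febit non-VSN by title, which involves the 2 arrays whose titles disagree with their values. For the same days r was 0.53 in Affymetrix RMA, 0.35 in Affymetrix VSN and 0.09 in Febit VSN. Python 3.11.15 and matplotlib 3.10.9 drew the figures.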

Additional observations from a re-analysis of the deposited data

Results flagged for a closer look

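The change of miR-208a from day 0 differed between the platforms at each later day, by a test of the difference itself in limma, with Febit VSN minus Affymetrix VSN at 3.66 at day 12, 3.81 at day 19 and 4.24 at day 26 (log2). The change of miR-499 at day 12 also differed, at -2.75 in the same direction of subtraction, with both Febit VSN cultures below day 0 and both Affymetrix VSN cultures above it. With RMA and non-VSN values it was -0.31 and not called (limma adjusted p = 0.794), and the raw Febit signal of miR-499 at day 12 was at 0.88 to 0.97 times the median of its array. On every Affymetrix VSN array miR-208a lay below the array median, and whether a change could be seen at that level was not tested. Probe design, labelling, platform background and normalization differ together between the arrays, and their parts cannot be told apart here. The paper also measured miR-208a by RT-qPCR (quantitative PCR after reverse transcription) on RNA of these samples. It describes that result as closer to Febit, with a rise that Affymetrix did not detect. No RT-qPCR values were analysed here.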

How the results depend on the processing

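For 45 fold changes of the members, 16 of them called, 345 alternatives other than leaving out an array were run: 312 kept direction and side of the threshold, 22 lost a call, 1 gained a call and 10 changed sign, none of them called. Centring each array on its median lowers the Affymetrix VSN changes by 0.77, 0.31 and 0.74 at days 12, 19 and 26. It left 1 call against day 0 in Affymetrix VSN, where 3 were made, and 1 in Affymetrix RMA, where 2 were made. Of all 485 tested, centred Affymetrix VSN called 154, 173 and 220 at days 12, 19 and 26, against 157, 163 and 193 uncentred. Affymetrix RMA called 169, 173 and 200 centred at these days, against 162, 176 and 195 uncentred. Centring turned miR-208a at days 12 and 26 to -0.23 and -0.46 (VSN) and to -0.14 and -0.15 (RMA), and miR-208b at day 12 to -0.50 (VSN) and -0.27 (RMA). Quantile normalization gave 1 call in Affymetrix RMA, where 147, 172 and 194 of all 485 tested were called at days 12, 19 and 26. There it turned miR-208b at day 12 to -0.047 and miR-208a at day 26 to -0.018. The sign of these small changes is therefore not settled. Centring also made the median change of all tested miRNAs negative, at -0.43 and -0.33 (VSN) and -0.26 and -0.21 (RMA) at days 12 and 26. The centred values of the members are to be read against these. miR-486 at day 26 in Febit VSN became -0.060 by centring and -0.45 by quantile normalization.

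With the letters as a replicate block, Affymetrix RMA made 1 call against day 0 (miR-208b at day 26 was lost), Affymetrix VSN 3, Febit non-VSN 3 and Febit VSN 5, and no other member call changed. Whether the letters pair cultures is not settled: on Affymetrix the deviations of a and b correlated between days 12 and 19 (0.53 in RMA, 0.35 in VSN), but at -0.07 to 0.06 with day 0. With only the arrays of the 2 days compared, Affymetrix RMA made 1 call and Febit VSN 1, where 5 were made. The raw Febit signal gave 2 calls against day 0 and 0 between later days, where 5 and 3 were made with Febit VSN. It also turned miR-499 at day 12 in Febit non-VSN to -0.10, as the exchange of titles did to -0.39. With RMA and non-VSN values the platform difference of miR-499 at day 12, -2.75 in VSN, was -0.31 (adjusted p = 0.794, and -0.81 with adjusted p = 0.142 after the exchange), and that at day 19 was -0.091. That of miR-208b at day 19 gained a call after the exchange (2.09, adjusted p = 0.00518).

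Leaving out each array gave 1 call against day 0 in Affymetrix RMA, 1 to 3 in Affymetrix VSN, 0 to 4 in Febit non-VSN and 2 to 6 in Febit VSN. Between later days Febit VSN made 0 to 3 calls, and the platform difference 0 to 3, where 4 were made. The sign turned among these fits only for changes that were not called: miR-208b at day 12 (-0.12 to 0.13 in RMA, -0.12 to 0.66 in VSN), miR-208a at day 26 (-0.076 to 0.20 in RMA, -0.12 to 0.68 in VSN) and at day 19 (-0.047 to 0.75 in VSN), miR-499 in Febit non-VSN at day 12 (-0.57 to 0.80) and day 19 (-0.20 to 0.67), and miR-486 in Febit VSN (-0.47 to 0.52). Sign also varied for miR-208a in Affymetrix VSN at day 26 against day 12 (-0.64 to 0.12) and day 19 (-0.45 to 0.31). In these fits a lone array of a day is assumed to vary like the other days. Calls among all tested miRNAs are not given for the replicate block, 2-day, raw signal and leave-out fits. The member counts of those fits therefore stand without that share. Raw means, lowest and highest features gave other raw levels, with 20 of 36 values farther from the median of the features than 1 SD between cultures.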
